A study of Saccharomyces cerevisiae with 9 samples.

Results

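The 42 genes described here encode the nuclear part of the respiratory chain and ATP synthase of budding yeast. The list was drawn up by gene name, with earlier results of these data known, out of 6942 features of the deposited table: the nuclear COX, QCR, SDH, NDE and ATP subunit genes, CYT1, RIP1, CYC1, CYC7, NDI1, and the ATPase inhibitors INH1 and STF1. By complex they are 3 NADH dehydrogenases, 4 genes of complex II, 9 of complex III, 2 of cytochrome c, 9 of complex IV, 13 of ATP synthase and 2 inhibitors. The list leaves out some nuclear subunits, such as COX26 and ATP19, which are given with other lists below. All 42 had a value on all 9 arrays, and all 42 IDs matched a gene symbol of the R64 assembly in RefSeq.

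Each array compared cDNA of a culture 30 min after addition of 0.7 M NaCl with cDNA of the same strain before stress, in rich YPD medium at 30°C, on tiled NimbleGen arrays read in 2 colours. The strains were BY4741, the wild type (WT, 7 arrays, replicates 1, 2 and 8 to 12), and ckb12 (2 arrays), a mutant without CKB1 and CKB2, the genes of the regulatory subunits of the protein kinase CK2. The labels put WT replicate 8 and ckb12 replicate 1 in set A, WT replicate 9 and ckb12 replicate 2 in set B, and WT replicates 10, 11 and 12 in sets C, D and E, while WT replicates 1 and 2 carry no set letter. Each value is a log2 ratio of stressed over unstressed signal, and each array was centred near 0, so a ratio is relative to the median feature of its array. A ratio says nothing of the level of a transcript in unstressed cells, and more RNA per cell cannot be told apart from more cells with the transcript.

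Some facts of the arrays bear on what follows. Of all features, 6129 had a value on all 9 arrays. The ratios of CKB1 and CKB2 were higher in ckb12 (0.44 to 0.97) than on any WT array (at most 0.10), but a ratio within a strain cannot show a deletion. WT replicate 12 is WT by title and genotype, although its source label also carries the word mutant. Among the 42 genes, WT replicate 11 gave the lowest of the 7 WT values for 17 and replicate 12 for 13, whereas replicates 2 and 9 gave the highest for 14 each. Counts without replicates 11 and 12 are therefore given beside the main counts.

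Yeast feeds electrons into the chain without a proton-pumping complex I. Single-protein NADH dehydrogenases on both faces of the inner mitochondrial membrane, and succinate dehydrogenase (complex II), reduce coenzyme Q. Complex III passes the electrons to cytochrome c, complex IV hands them to oxygen, and ATP synthase uses the proton gradient that complexes III and IV build. On glucose, as in YPD, yeast ferments and holds many of these genes low by glucose repression. A few subunits come as alternative forms, of which COX5B and CYC7 are best known from cells short of oxygen and COX5A and CYC1 from aerated cells.

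In WT after salt, most genes of electron transport and both ATPase inhibitors were higher, and the means of the 13 ATP synthase genes stayed between -0.46 and 0.48. Of the 42 genes, 25 were higher, 4 were lower (CYC1, NDE1, ATP18 and ATP20) and 13 were not called (limma, mean of 7 arrays against 0, Benjamini-Hochberg adjusted p below 0.05 over all features tested). Over all 6129 features, 77.1% were called, 36.5% higher and 40.6% lower. With a mean of 1 or more away from 0 as well, 16 of the 42 were higher and 1, CYC1, was lower, against 12.6% and 16.2% of all features. The median WT mean of the 42 was 0.39, against -0.042 for all features. Ratios had the same sign on all 7 WT arrays for 25 of the 42, 23 above 0 and 2 below, against 67.3% of all features in either direction. Without replicate 11, 28 were higher and 4 lower, and without replicate 12, 29 and 4. On the 5 set-labelled WT arrays alone, 25 were higher and 3 lower.

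**Figure D1:**
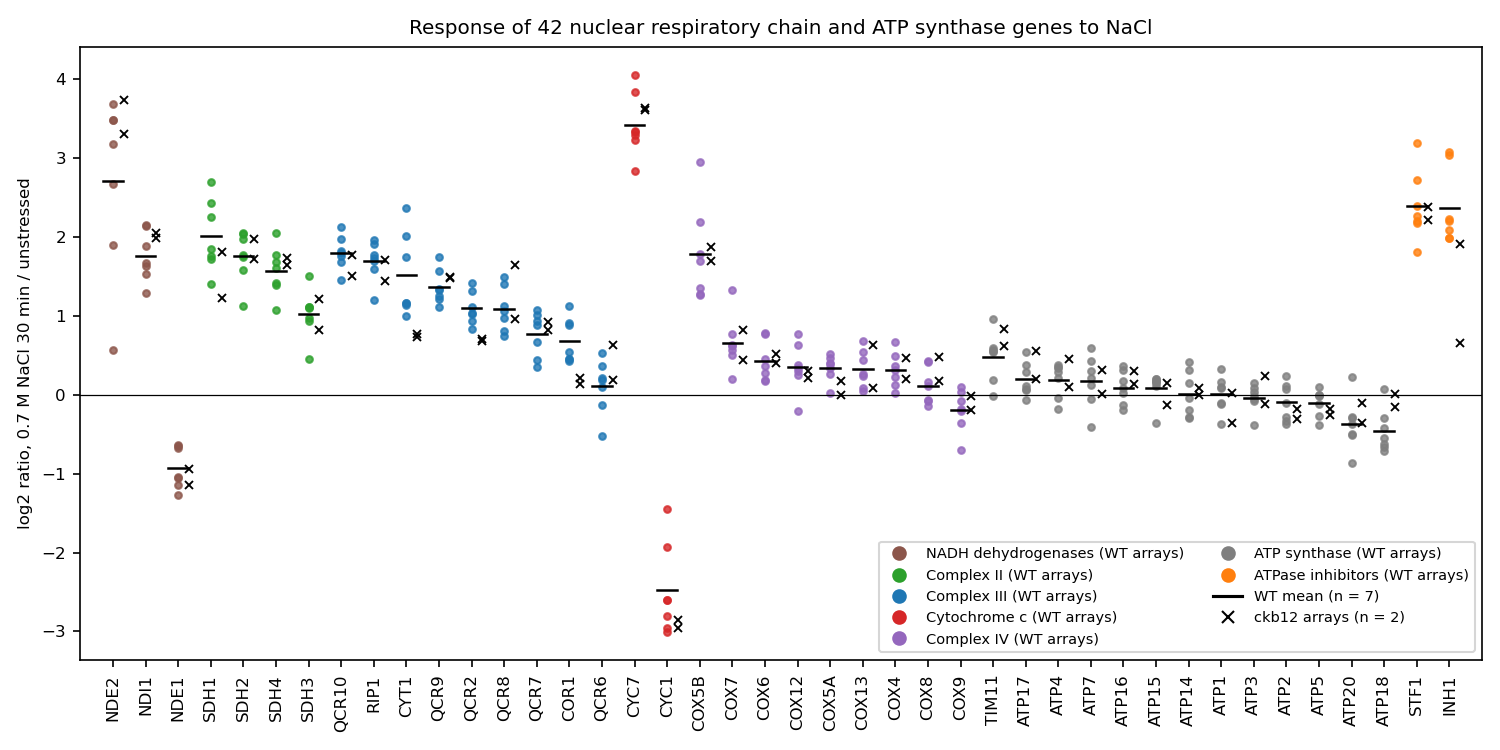
Log2 ratio of 0.7 M NaCl over unstressed (vertical axis) for each of the 42 genes, grouped by complex, with circles for the 7 WT arrays, bars for the WT mean and crosses for the 2 ckb12 arrays. Complexes II and III lie mostly above 1, ATP synthase lies around 0, CYC7 (WT mean 3.41) and CYC1 (-2.48) are the extremes, and INH1 and STF1 lie near 2.4.

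The NADH dehydrogenases did not move as a class. NDI1 (YML120C), which oxidises NADH in the matrix, ranged over the 7 WT arrays from 1.29 (replicate 11) through a median of 1.66 to 2.15 (replicate 12), and was 1.99 and 2.04 in ckb12. Its WT mean of 1.75 ± 0.32 (SD, n = 7) is a 3.37-fold rise (limma, adjusted p = 1.19e-07). NDE2 (YDL085W), which oxidises cytosolic NADH at the outer face, ranged in WT from 0.56 (replicate 2) through 3.18 to 3.68 (replicate 9), and was 3.74 and 3.31 in ckb12. All 9 values were above 0, but NDE2 had the widest spread of the 42 genes, with a WT mean of 2.71 ± 1.13 (SD, n = 7; limma, adjusted p = 3.05e-05). NDE1 (YMR145C), the other external enzyme, ranged from -1.28 (replicate 1) through -1.05 to -0.64 (replicate 12), and was -0.95 and -1.15 in ckb12. NDE1 was thus below 0 on all 9 arrays, with a WT mean of -0.93 ± 0.27 (SD, n = 7), a 1.90-fold fall (limma, adjusted p = 6.66e-06).

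All 4 genes of complex II rose by at least 1 in WT, with means from 1.03 to 2.01 and a median of 1.66. SDH1 (YKL148C), the flavoprotein that oxidises succinate, had the highest mean of the complex. Its WT values ran from 1.40 (replicate 11) through 1.84 to 2.69 (replicate 2), and its ckb12 values were 1.81 and 1.22. The mean of 2.01 ± 0.46 (SD, n = 7) is a 4.03-fold rise (limma, adjusted p = 4.18e-07), and the lower ckb12 value lay under every WT value. SDH3 (YKL141W), a cytochrome b membrane anchor, had the lowest mean of the complex, from 0.45 (replicate 11) through 1.10 to 1.51 (replicate 9) in WT and 0.82 and 1.21 in ckb12. Its mean was 1.03 ± 0.32 (SD, n = 7; limma, adjusted p = 7.95e-06). The iron-sulfur subunit SDH2 (1.75) and the other anchor SDH4 (1.57) lay between them.

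Complex III rose almost throughout. In WT, 8 of its 9 genes were higher, 6 of them by at least 1, and the median of their means was 1.10. QCR10 (YHR001W-A), a small peripheral subunit, had the highest mean, from 1.46 (replicate 11) through 1.79 to 2.13 (replicate 1) in WT and 1.50 and 1.77 in ckb12. All 9 values lay well above 0, with a WT mean of 1.80 ± 0.21 (SD, n = 7; limma, adjusted p = 1.30e-08). The catalytic subunits followed, with RIP1, the Rieske iron-sulfur protein, at 1.69 and CYT1 (YOR065W), cytochrome c1, at 1.51. CYT1 ranged in WT from 0.995 (replicate 11) through 1.17 to 2.36 (replicate 2) and was 0.76 and 0.73 in ckb12, so that the strains did not overlap for it. The core subunits QCR2 (1.10) and COR1 (0.68) and the small subunits QCR9 (1.36), QCR8 (1.09) and QCR7 (0.77) were also higher.

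QCR6 (YFR033C), the acidic subunit beside cytochrome c1, was the exception of complex III. It ranged in WT from -0.52 (replicate 12) through 0.19 to 0.53 (replicate 2), and was 0.18 and 0.63 in ckb12. Both signs occurred among the WT arrays, the WT mean was 0.11 ± 0.34 (SD, n = 7), and the gene was not called (limma, adjusted p = 0.415). Without replicate 12 its mean was 0.21 (limma, adjusted p = 0.049).

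Complex IV moved less. In WT, 7 of its 9 nuclear genes were higher, but only COX5B by at least 1, and the median of their means was 0.34. The WT means of COX4, COX6, COX7, COX12 and COX13, all structural subunits around the mitochondrially encoded core, ran from 0.32 to 0.66, and COX8 at 0.11 was not called (limma, adjusted p = 0.254). COX9 (YDL067C), a small membrane subunit, had the lowest mean. It ranged in WT from -0.71 (replicate 11) through -0.18 to 0.10 (replicate 2), with -0.016 and -0.20 in ckb12. Both signs occurred, and its mean of -0.20 ± 0.27 (SD, n = 7) was not called (limma, adjusted p = 0.0842), although it was without replicate 2 (-0.25, adjusted p = 0.0457).

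ATP synthase moved little. Of 13 genes, 1 was higher, 2 were lower and 10 were not called (limma, Benjamini-Hochberg), and the median of the WT means was 0.0092. How many were called depended on the setting. Without replicate 11 there were 4 higher and 2 lower (ATP4, ATP15 and ATP17 added), and without replicate 12 also 4 and 2 (ATP4, ATP7 and ATP17 added). By a Storey-type q value below 0.05, the kind of adjustment the study used, 6 were higher and 4 lower, when 89.8% of all features were called. All 5 genes of the F1 head (ATP1, ATP2, ATP3, ATP15 and ATP16, the alpha to epsilon subunits) were among the 10 not called by Benjamini-Hochberg adjustment, with 95% confidence intervals of the WT mean that lay within -0.30 and 0.27. So were the 4 genes of the peripheral stalk and its links (ATP4, ATP5, ATP7 and ATP14), with intervals within -0.27 and 0.42. These bounds do not show that the genes were unmoved, but they leave out a change of 1 in either direction. None of the 13 genes had the same sign on all 7 WT arrays. ATP19, a nuclear subunit gene of ATP synthase outside the 13, did: it was below 0 on all 7, with a WT mean of -0.73 (limma, adjusted p = 0.00032).

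The 3 calls of ATP synthase came from its small membrane subunits, which hold the dimers of the enzyme together or lie beside them. TIM11 (YDR322C-A, subunit e) ranged in WT from -0.013 (replicate 12) through 0.56 to 0.96 (replicate 9), with 0.62 and 0.83 in ckb12. Its mean was 0.48 ± 0.31 (SD, n = 7; limma, adjusted p = 0.00190), and 1 WT array lay just below 0. ATP18 (YML081C-A, subunit i/j) ranged from -0.72 (replicate 11) through -0.54 to 0.066 (replicate 9), with -0.16 and 0.0075 in ckb12. Its mean was -0.46 ± 0.27 (SD, n = 7; limma, adjusted p = 0.00138), with 6 of 7 WT arrays below 0. ATP20 (subunit g) was also lower, at -0.37 (limma, adjusted p = 0.0109), while ATP17 (subunit f), at 0.20, had an adjusted p of 0.0505 (limma). The changes of all 3 called genes were smaller than the median rise of complex III.

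The inhibitors of the enzyme behaved unlike its subunits. INH1 (YDL181W), which stops ATP synthase from running backwards and burning ATP, ranged in WT from 1.98 (replicate 8) through 2.20 to 3.07 (replicate 2), and was 1.91 and 0.66 in ckb12. Its WT mean of 2.37 ± 0.48 (SD, n = 7) is a 5.17-fold rise (limma, adjusted p = 1.55e-07). STF1 (YDL130W-A), its paralogue, ranged from 1.81 (replicate 12) through 2.26 to 3.19 (replicate 2), and was 2.21 and 2.38 in ckb12. Its WT mean of 2.39 ± 0.45 (SD, n = 7) is a 5.26-fold rise (limma, adjusted p = 8.70e-08). For both genes the 2 highest WT values were those of replicates 1 and 2, the arrays without a set letter.

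The order of the complexes held on each array. The median of complex III exceeded that of ATP synthase on all 7 WT arrays, by 0.91 to 1.31, and by 0.81 and 0.83 in ckb12. The median of complex II exceeded that of ATP synthase by 1.29 to 2.02 in WT, and that of complex III exceeded that of complex IV by 0.60 to 1.12. Complex IV lay above ATP synthase by only 0.10 to 0.38, also on all 7. Over the 27 genes of electron transport, 22 were higher and 2 lower in WT, whereas over ATP synthase the counts were 1 and 2 of 13. Genes of a complex share each array, so these are descriptions over arrays and no test was made over genes.

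**Figure D2:**
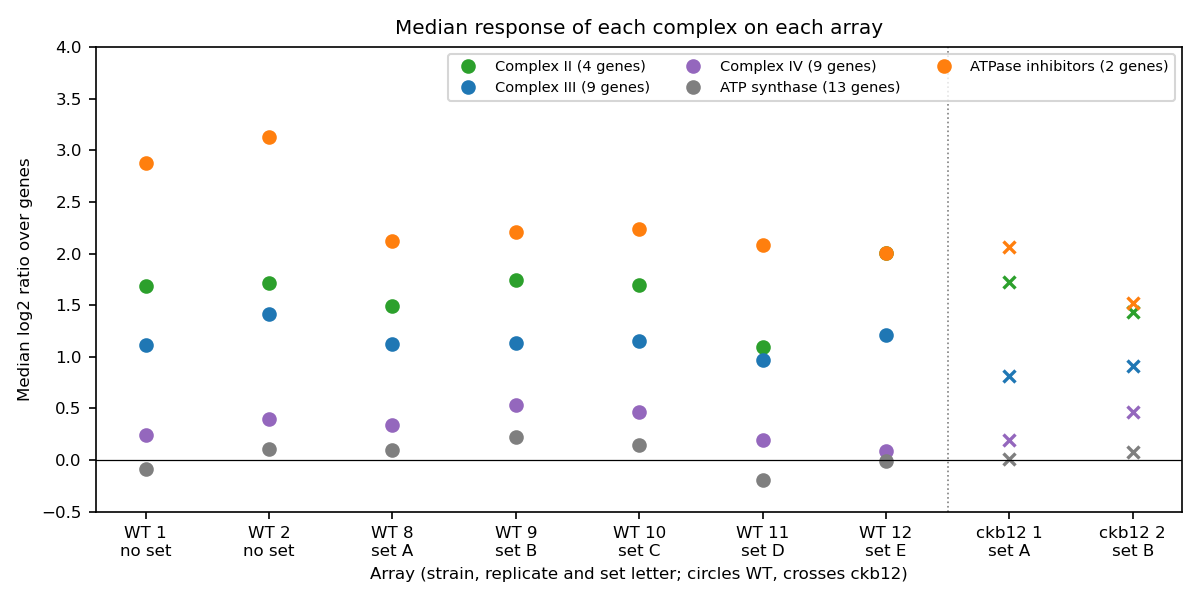
Median log2 ratio of NaCl over unstressed (vertical axis) over the genes of 5 groups on each of the 9 arrays (horizontal axis, with strain, replicate and set letter), with circles for WT and crosses for ckb12. ATP synthase lies lowest and complex IV next on every array, complex III lies between 0.97 and 1.41 in WT, and the inhibitors stand at 2.88 and 3.13 on the 2 arrays without a set letter against 2.01 to 2.24 on the 5 others; on WT replicate 12 the inhibitors and complex II fall on the same point.

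Alternative forms of the same protein moved apart. Cytochrome c showed it most. CYC7 (YEL039C), iso-2, ranged in WT from 2.83 (replicate 12) through 3.32 to 4.05 (replicate 9), with 3.63 and 3.61 in ckb12. CYC1 (YJR048W), iso-1, ranged from -3.005 (replicate 8) through -2.61 to -1.45 (replicate 2), with -2.86 and -2.95 in ckb12. The forms lay on opposite sides of 0 on all 9 arrays. The WT means were 3.41 ± 0.40 for CYC7, a 10.7-fold rise that ranked 104 from the top of 6129 features, and -2.48 ± 0.58 for CYC1, a 5.58-fold fall that ranked 146 from the bottom (SD, n = 7; limma, adjusted p = 3.77e-09 and 4.00e-07).

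Subunit 5 of complex IV is made from COX5A or COX5B. COX5A (YNL052W) ranged in WT from 0.015 (replicate 11) through 0.39 to 0.51 (replicate 9), and was 0.00077 and 0.17 in ckb12. COX5B (YIL111W) ranged from 1.26 (replicate 12) through 1.69 to 2.94 (replicate 2), and was 1.69 and 1.88 in ckb12. The lowest COX5B value lay above the highest COX5A value, although both forms were called higher in WT, at 0.34 ± 0.16 for COX5A and 1.78 ± 0.61 for COX5B (SD, n = 7; limma, adjusted p = 0.00153 and 8.38e-06).

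The differences within pairs were taken on each array, so that array-wide shifts cancel. CYC7 minus CYC1 was 5.89 ± 0.84 in WT (SD, n = 7), a ratio of the fold changes of 59.4, NDE2 minus NDE1 was 3.63 ± 0.98 and COX5B minus COX5A was 1.44 ± 0.55, each above 0 on 7 of 7 arrays. For these 3 pairs the exact 2-sided permutation test that flips signs over 7 arrays gave p = 0.0156, the smallest that 7 arrays allow, and 0.0208 after Benjamini-Hochberg adjustment over the 4 pairs examined, which were also chosen with earlier results known. STF1 minus INH1, in contrast, was 0.025 ± 0.28 (SD, n = 7), above 0 on 4 of 7 arrays (exact permutation test, p = 0.859, adjusted 0.859). Its values on single arrays ran from -0.40 to 0.31. This does not show that the inhibitors moved alike, since a small mean difference could go undetected with 7 arrays. In ckb12 the mean differences were 6.52, 4.57, 1.70 and, for STF1 minus INH1, 1.01, the last from unlike values of 0.30 and 1.73. Members of a pair are similar in sequence, how tiles shared between paralogues were treated is not given in the sources used here, and the part of cross-hybridisation was not tested.

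**Figure D3:**
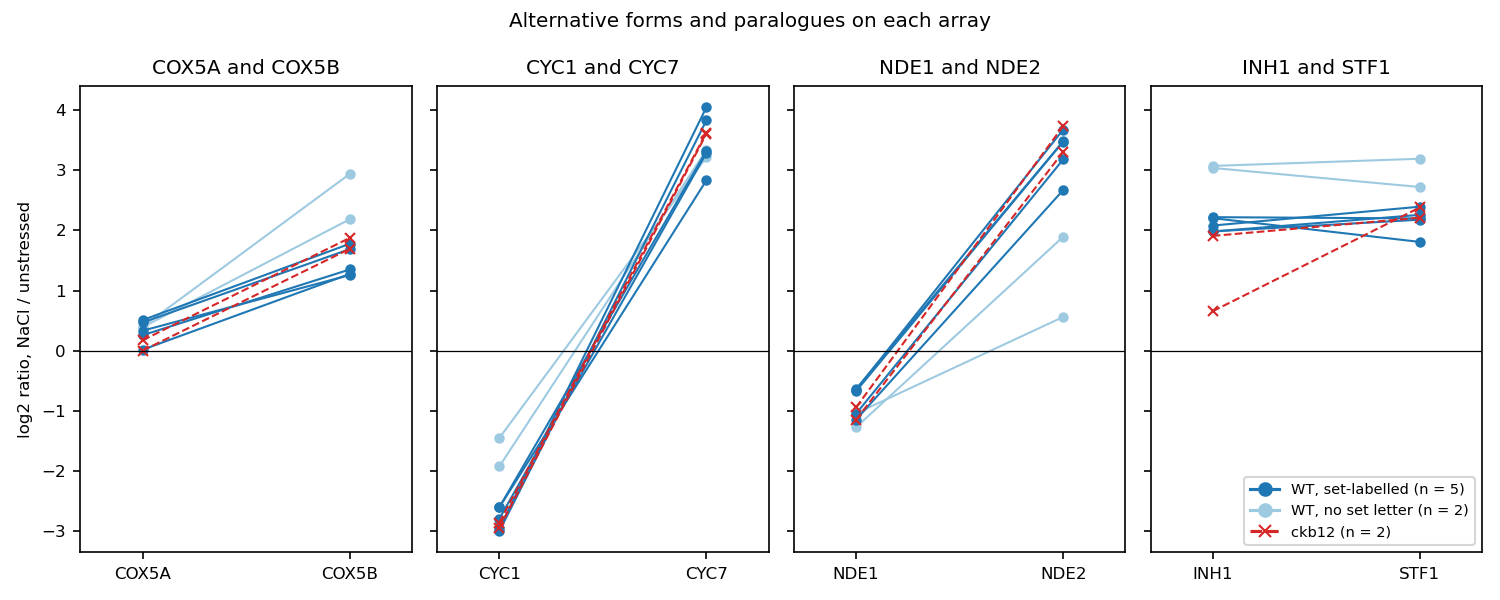
Log2 ratio of NaCl over unstressed (vertical axis) for both genes of 4 pairs, with 1 line per array: 5 WT arrays with a set letter (dark blue), 2 WT arrays without (light blue) and 2 ckb12 arrays (red, dashed). All 9 lines rise from COX5A to COX5B, from CYC1 to CYC7 and from NDE1 to NDE2, and the lines from INH1 to STF1 are nearly level except on ckb12 replicate 2, which goes from 0.66 to 2.38.

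The set letter is the only grouping of the WT arrays in the labels. In the comparison of 5 set-labelled with 2 unlabelled WT arrays, 2 of the 42 genes were called, both lower with a set letter (limma, Benjamini-Hochberg), against 0.457% of all features called in either direction and 0.114% lower. CYC1 averaged -2.79 ± 0.19 (SD, n = 5) with a letter and -1.69 ± 0.33 (SD, n = 2) without, a difference of -1.10 (limma, adjusted p = 0.0447). INH1 averaged 2.09 ± 0.12 and 3.06 ± 0.024 (SD, n = 5 and 2), a difference of -0.96 (limma, adjusted p = 0.0248). With 2 unlabelled arrays the p values moved more than the differences. Over the fits without single arrays, the difference ran from -1.34 to -0.87 for CYC1 and from -0.99 to -0.93 for INH1. CYC1 was no longer called after quantile normalization (limma, adjusted p = 0.105), after scaling to an equal spread (0.132), or without any of replicates 2, 8, 9, 10 and 11 (0.0845 to 0.472), and INH1 was not without any of replicates 1, 2, 8, 9, 10 and 11 (0.0516 to 0.318).

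For 6 of the 42 genes the set-labelled and unlabelled arrays did not overlap (COX5B, CYT1, CYC1, NDE2, INH1 and STF1), a smaller share than the 18.7% of all features. Without adjustment, p was below 0.05 for 8 of the 42 (these 6, COR1 and SDH1) and for 13.2% of all features. NDE2 was higher with a letter, at 3.30 ± 0.39 (SD, n = 5) against 1.23 ± 0.94 (SD, n = 2; limma, adjusted p = 0.0515). It was called after quantile normalization (limma, adjusted p = 0.0363), among ORF-style features alone (0.0347), and without replicate 1 (0.0146) or 12 (0.0373). The other 5 were lower with one, among them COX5B at 1.47 ± 0.24 against 2.56 ± 0.53 and CYT1 at 1.24 ± 0.29 against 2.18 ± 0.25 (SD, n = 5 and 2; limma, adjusted p = 0.125 and 0.133). No member of ATP synthase was among them. What the letter stands for beyond a set is not given in the sources used here.

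In ckb12 the response had the same outline. In a model of all 9 arrays, 20 of the 42 genes were higher in ckb12 after salt, 2 were lower (CYC1 and NDE1) and 20 were not called (limma, Benjamini-Hochberg), against 27.4% of all features higher and 35.7% lower, 63% in all. Without ckb12 replicate 1 the count higher was 18 and without replicate 2 it was 16, with 2 lower in both. The median of the 42 means was 0.39, as in WT. All 4 genes of complex II, 7 of 9 in complex III, 3 of 9 in complex IV and both inhibitors were higher, and of 13 genes of ATP synthase only TIM11 (0.73; limma, adjusted p = 0.00665) was called. COR1, called in WT, was not called in ckb12, at 0.18 (limma, adjusted p = 0.396). A call in WT and none in ckb12 is no test of a difference, which follows.

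No gene of the 42 was called different between the strains. In the paired comparison, ckb12 minus WT within sets A and B (4 arrays, 6600 features, set letter as a block), 0 of the 42 were called, with a lowest adjusted p of 0.263 (limma, Benjamini-Hochberg), and 0.0152% of all features were. Without adjustment, p was below 0.05 for 2 of the 42, CYT1 and NDI1, and for 16.6% of all features. In the comparison of 2 ckb12 with 7 WT arrays, which shares the ckb12 arrays with the first, 0 of the 42 were called, with a lowest adjusted p of 0.197 (limma), against 1.14% of all features. Without adjustment, p was below 0.05 for 4 (CYT1, QCR2, COR1 and INH1) and for 15.3% of all features. The precision limits this: single 95% confidence intervals over the 42 genes reached from -1.76 to 0.80 in the paired fit. In the comparison of 2 with 7 arrays they reached from -1.92 to 2.34.

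The 2 largest paired differences below 0 were those of INH1 and CYT1, and the 2 largest above 0 were those of NDI1 and QCR6. For INH1 the difference was -0.073 in set A but -1.56 in set B, and averaged -0.82 (limma, SE 0.37, adjusted p = 0.354), so set B alone carried it. For CYT1 the sets gave -0.40 and -0.41, averaging -0.40 (limma, SE 0.14, unadjusted p = 0.0384, adjusted p = 0.273). NDI1 differed by 0.46 and 0.38, averaging 0.42 (limma, SE 0.14, unadjusted p = 0.0342, adjusted p = 0.263). QCR6 differed by -0.032 and 0.53, averaging 0.25 (limma, SE 0.19, adjusted p = 0.565). CYT1 and NDI1 thus kept size and sign across both sets, while INH1 and QCR6 rested on set B. The same 2 sets picked these genes, so this agreement is no separate support for a difference. The sets had the same sign for 25 of the 42 genes and for 63.7% of all features.

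Against all 7 WT arrays, both ckb12 values lay below the WT range for 4 genes, the 3 complex III genes CYT1, QCR2 and COR1 and the inhibitor INH1, and above it for none, against 12% and 5.32% of all features. QCR2 was 0.68 and 0.71 in ckb12 against a lowest WT value of 0.83, and COR1 was 0.22 and 0.14 against 0.43. The differences were -0.76 for CYT1, -0.40 for QCR2, -0.50 for COR1 and -1.09 for INH1 (limma, unadjusted p = 0.0441, 0.0303, 0.0281 and 0.0150). The 2 unlabelled WT arrays had the 2 highest values of CYT1 and INH1, and the paired difference, which leaves those arrays out, was smaller for both. Both ckb12 values lay beyond the WT mean ± 2 SD for 0 of the 42 genes and for 7.59% of all features.

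By sign, 30 of the 42 paired differences were below 0, and 20 genes were below 0 in both sets, against 38.3% of all features. The median difference was -0.11, against -0.047 over all features. By complex, 10 of 13 ATP synthase genes, 7 of 9 in complex III and 7 of 9 in complex IV had a difference below 0. The share of all features below 0 is not given here, but their median was below 0 too, so these counts are not particular to the 42. In the comparison with all 7 WT arrays, however, the median over the 42 genes was 0.024, on the other side of 0, against -0.057 over all features.

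**Figure D4:**
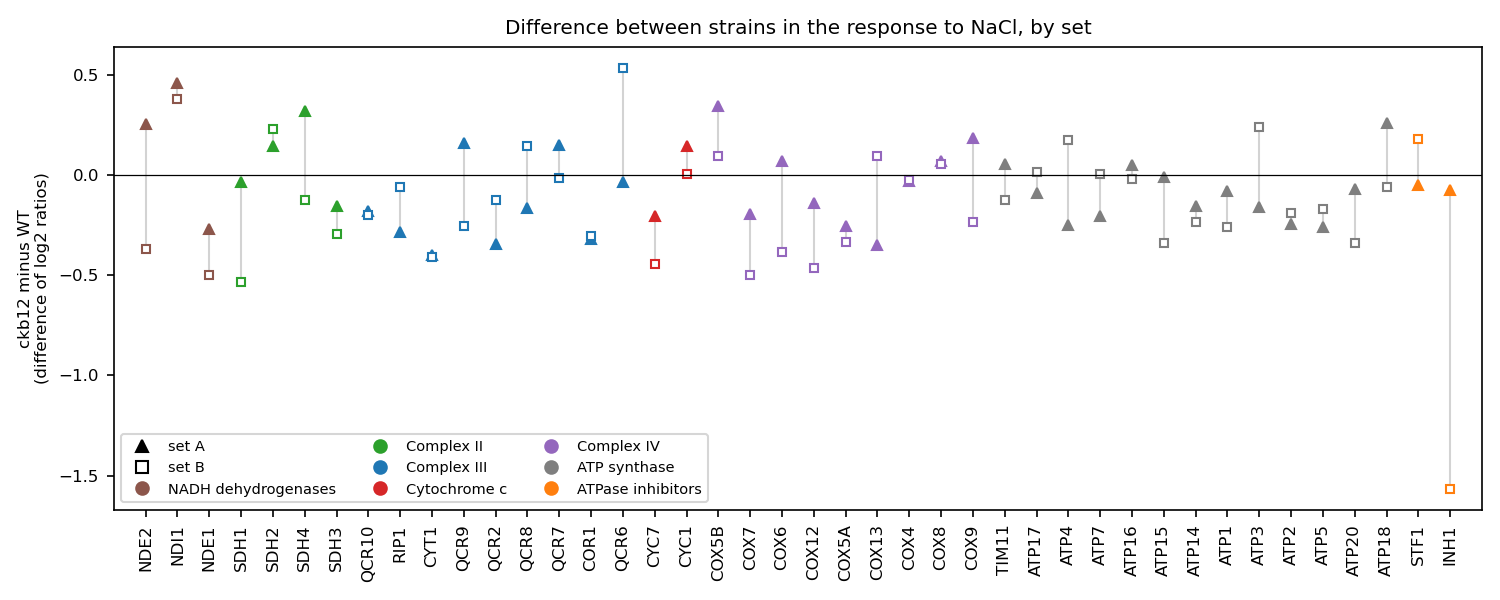
Difference of the log2 ratios, ckb12 minus WT (vertical axis), for each of the 42 genes in set A (triangles) and set B (open squares), with a line joining the sets and colours for the complexes. CYT1 (-0.40 and -0.41) and NDI1 (0.46 and 0.38) are alike in both sets, and INH1 is not (-0.073 and -1.56).

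Beyond the 42 genes, 13 lists of other genes of respiration, with 94 genes in all, were measured the same way. The 7 subunits encoded in the mitochondrial genome, the partners of the nuclear subunits, stayed near 0. COX2 was higher at 0.28 (limma, adjusted p = 0.0194), and the other 6 were not called, with OLI1, the ring subunit of ATP synthase, lowest at -0.15. How cDNA synthesis was primed, which bears on messages from mitochondria, is not given in the sources used here.

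Nuclear subunits and factors outside the 42 spread widely. COX26 (YDR119W-A), a small complex IV subunit, ranged in WT from 2.05 (replicate 1) through 2.75 to 3.25 (replicate 9), a mean of 2.73 ± 0.40 (SD, n = 7; limma, adjusted p = 1.75e-08). It was 3.70 and 3.53 in ckb12, above every WT value, but not called different (limma, 0.88, adjusted p = 0.147). RCF2, a supercomplex factor that binds complex IV, was lowest at -1.64. ATP19, a subunit gene of ATP synthase, was lower at -0.73 ± 0.38 (SD, n = 7; limma, adjusted p = 0.00032). In ckb12 ATP19 was lower too, at -0.84 (limma, adjusted p = 0.00797). In a list of 4 genes, paralogues of complex II subunits and STF2 (YGR008C), all 4 were higher. They ran from the SDH1 paralogue SDH9 at 0.63 to STF2 at 3.65 ± 0.36 (SD, n = 7), the highest WT mean of all these lists. STF2 was listed with them by its name and is not taken as a paralogue of STF1. STF2 ranged in WT from 3.004 to 3.99 and was 3.93 and 3.80 in ckb12.

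Assembly and synthesis genes moved in part. Beside the counts of these and the other lists, 77.1% of all features were called in WT, 36.5% higher and 40.6% lower. The share called was 65% for complex IV assembly, 44.4% for complex III and cytochrome c and 57.1% for ATP synthase assembly, all below that of all features. It was 100% for complex II assembly, 90.9% for translational activators and 90% for coenzyme Q. Of 20 complex IV assembly genes, 12 were higher and 1 lower, from COX20, a chaperone of Cox2, at 1.40 to OXA1, the inner membrane insertase, at -1.43. All 4 complex II assembly factors were higher, from SDH7 at 0.23 to SDH6 at 2.24. Of 9 for complex III and cytochrome c, 4 were higher and none lower, between CBP4 at 0.60 and the heme lyase CYC3 at -0.24, which was not called (limma, adjusted p = 0.0711). Of 7 for ATP synthase, 3 were higher and 1 lower, from ATP22 at 0.83 to ATP11, a chaperone of the F1 head, at -0.40. Of 11 translational activators of mitochondrial messages, 8 were higher and 2 lower (AEP3 0.93, PET122 -0.77), and of 10 genes for coenzyme Q, 7 were higher and 2 lower (COQ3 1.33, COQ2 -0.37).

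Enzymes that feed the chain from other substrates were all higher in WT: GUT2, the mitochondrial glycerol 3-phosphate dehydrogenase, at 2.61 ± 0.33, CYB2, which passes electrons from L-lactate to cytochrome c, at 2.25 ± 0.30, and DLD1, for D-lactate, at 0.90 ± 0.19 (SD, n = 7). Of 5 carriers, PIC2 (2.80), which carries phosphate and copper, and the ADP/ATP carrier AAC1 (1.15) were higher. The main ADP/ATP carrier PET9 (-0.44), the main phosphate carrier MIR1 (-0.44) and AAC3 (-2.40), the ADP/ATP carrier of cells short of oxygen, were lower. AAC3 (YBR085W) ranged in WT from -2.87 (replicate 2) through -2.35 to -2.14 (replicate 12), with -1.42 and -1.49 in ckb12. It was the 1 gene of the 94 in these lists called different against all 7 WT arrays (0.95; limma, adjusted p = 0.0397). Of all features 1.14% were called there, so 1 call among 94 genes is near the common share. In the paired fit its adjusted p was 0.119 (limma). That call was lost without either ckb12 array or any of WT replicates 1, 8, 9, 10 and 11 (limma, adjusted p = 0.0592 to 0.335, difference 0.91 to 0.98), after quantile normalization (0.0612) or scaling to an equal spread (0.0819), and with features that have missing values (0.0573).

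Regulators and oxygen-related genes did not move together. HAP4, the activating subunit of the complex that drives many respiratory genes, ranged in WT from -0.80 (replicate 8) through -0.54 to -0.26 (replicate 12), with -0.41 and -0.29 in ckb12, and was lower at -0.54 ± 0.20 (SD, n = 7; limma, adjusted p = 0.000108). ROX1, the repressor of hypoxic genes in aerated cells, ranged from -0.68 (replicate 10) through -0.41 to -0.18 (replicate 12), with -0.25 and -0.33 in ckb12, and was lower at -0.39 ± 0.17 (SD, n = 7; limma, adjusted p = 0.00061). Of the DNA-binding partners of HAP4, HAP2 (0.89) and HAP5 (0.39) were higher and HAP3 (-0.083) was not called. HAP1 (0.80) and MOT3 (0.31) were also higher, so that of 7 transcription factors 4 were higher and 2 lower. Of 4 other hypoxic genes, AAC3, ANB1 (-1.63) and HEM13 (-1.15) were lower and HMG2 (0.11) was not called, while COX5B and CYC7, also known from cells short of oxygen, were higher.

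**Figure D5:**
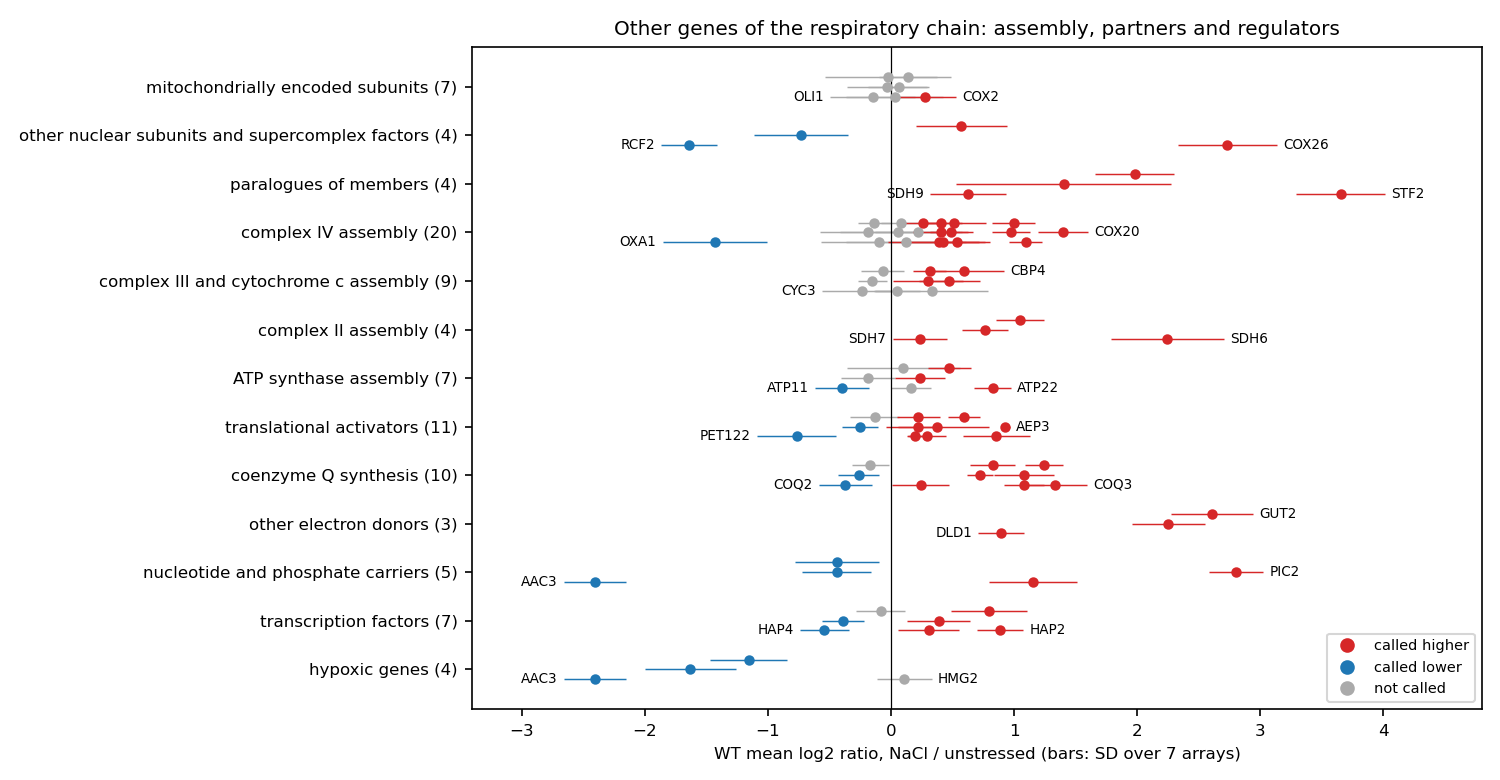
WT mean log2 ratio of NaCl over unstressed (horizontal axis) with bars for the SD over 7 arrays, for genes of 13 other lists (vertical axis, with the number of genes), coloured by call (limma, adjusted p below 0.05). The names give the highest and lowest gene of each list, from AAC3 at -2.40 to STF2 at 3.65, and the mitochondrially encoded subunits lie near 0.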

How the data were processed

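The authors hybridised labelled cDNA of stressed and unstressed cultures together to tiled NimbleGen arrays, normalized the signals and deposited log2 ratios, 1 value per feature and array, with replicates kept apart. The table states neither log base nor direction, which were read from the study's methods and legends (base) and from labels and methods (stressed over unstressed). Tile summary, background correction and genome build are not given in the sources used here. The labels give 1 dye orientation for all arrays, whereas the methods mention others on select samples. Precision is limited by the number of arrays, since no spot intensities were used. The methods speak of biological replicates.

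Deposited ratios were fitted without further normalization in R 4.3.3 with limma 3.58.1 (lmFit, eBayes) over features measured on every array of that fit, with calls at a Benjamini-Hochberg adjusted p under 0.05 over all of them. Fits were the mean of 7 WT arrays, the ckb12 mean in a model of 9 arrays, ckb12 minus WT with the set letter as a block (4 arrays) or without a block (9 arrays), and set-labelled minus unlabelled WT. Pairs come from the set letters, as the study compared each mutant with its paired WT. Across features, the deviations from group means of arrays that share a set correlated at -0.0433, so with 2 sets the pairing rests on the labels. Pairs of genes were tested by exact sign-flip permutation. Fits were tested on simulated data.

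The members and lists were chosen with earlier results of these data known. Values on every array were given for the 4 pairs, the highest and lowest WT mean of each complex, genes called in a comparison of strains or sets, the 2 largest paired differences each way, and, of other lists, the highest and lowest gene, HAP4 and ROX1. Other genes are named as members of a counted group or as chosen after their values were seen, such as ATP19, and COX26 and AAC3 in ckb12. Alternatives were quantile normalization, an equal median absolute deviation, missing values, robust eBayes, ORF-style features only, a Storey-type q value, a minimum change of 1, other blocks and leaving out arrays. Promoter and protein sequences were not used here.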

Additional observations from a re-analysis of the deposited data

Results flagged for a closer look

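ATP15, the epsilon subunit of the F1 head, was -0.36 on WT replicate 11, far below the other 6 WT arrays, of which the nearest was 0.11. The difference NDE2 minus NDE1 was 1.61 on WT replicate 2, against 3.17 on the nearest of the other WT arrays. These were 2 samples that stood apart among 46 groups of 7 arrays examined, and chance alone sets a sample apart in about 1 in 20 groups.

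CYC1 and INH1 differed between WT arrays with and without a set letter, by -1.10 and -0.96 on the log2 scale (limma, adjusted p = 0.0447 and 0.0248, n = 5 and 2). For both genes the 2 groups of arrays did not overlap, as they did not for 18.7% of all features. Both calls were lost in most fits without single arrays, as given above.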

How the results depend on the processing

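None of 17 members and 5 list genes (COX26, STF2, AAC3, HAP4 and ROX1) changed sign in 378 alternative fits of single genes, of which 23 lost a call and 4 gained it. Some of these fits could not change a sign. Robust eBayes, ORF-style features only, missing values and the Storey-type q value leave the estimates of these genes as they were. Of the counts of called genes, 138 stayed within 1.5 times the main count and 22 did not. A minimum change of 1 left 16 genes higher and 1 lower in WT (15 of electron transport and 0 of ATP synthase), and a Storey-type q value called 31 higher and 7 lower, among them 10 of the 13 of ATP synthase instead of 3. An equal median absolute deviation called 5 of the 13, and leaving out single arrays 3 to 6, against 24 to 25 of the 27 of electron transport. Leaving out single arrays gave 25 to 29 higher and 4 to 5 lower in WT, 16 to 21 higher and 2 to 2 lower in ckb12, and 0 to 0 in the comparison of 2 with 7 arrays. The alternatives of that comparison, of the list genes and of the counts by complex were chosen after seeing the data. In the comparison by set letter, quantile normalization gave 1 higher and 1 lower, ORF-style features alone 1 higher, an equal median absolute deviation 1 lower, and leaving out single arrays 0 to 1 higher and 0 to 3 lower. On the 2 unlabelled WT arrays alone the medians were 1.26 for complex III, 0.80 for cytochrome c, 1.23 for the NADH dehydrogenases and 3.01 for the inhibitors. STF1 minus INH1 ran from -0.024 to 0.095 without single arrays and was below 0 without replicate 8 (-0.017), 10 (-0.024) or 11 (-0.0040). The cause was not tested.

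With a replicate block by replicate number, which pairs WT replicates 1 and 2 with ckb12 replicates 1 and 2 although they share only a number, 1 gene was higher (NDE2, 2.29; limma, adjusted p = 0.0437) and 1 lower (CYT1, -1.44; limma, adjusted p = 0.0459). Other fits with or without a replicate block called 0 of the 42. Leaving out an array of the paired fit left 1 set and no test. Signal over background is unknown, so no limit by depth can be given.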
